A study of Equus asinus with 6 samples.

Results

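TEKT5 (tektin-5) and TMEM37 (transmembrane protein 37) were measured in back muscle (longissimus dorsi) of Guangling donkeys, a breed of Equus asinus. Both genes were picked because every library from muscle of high intramuscular fat (IMF) lay below every library from muscle of low IMF, so their difference between the groups is a description and carries no test. They are 2 of the 20873 genes with a read count, and both were among the 15933 genes tested, with at least 468 reads in each library.

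The 6 libraries came from donkeys aged 24 months, with 3 libraries of high and 3 of low IMF, and the tissue was taken within 30 minutes of slaughter and frozen in liquid nitrogen. Both groups share the breed, the age and the muscle. Sex and measured fat content are not among the labels used here. Whether the libraries of a group stand for separate animals is not stated either, so a p-value measures only their spread, which may be technical.

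Tektins are coiled-coil proteins that lie along the inside of the doublet microtubules of cilia and flagella. TEKT5 is known as a tektin of the sperm flagellum. TMEM37 is a small membrane protein, also named the voltage-dependent calcium channel gamma-like subunit, of the claudin-like superfamily that holds the gamma subunits of calcium channels. In skeletal muscle the calcium channel of the transverse tubule carries the gamma subunit CACNG1 and senses the voltage that triggers contraction.

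The libraries held 39052998 to 47494157 assigned reads. All 14 muscle fibre markers were counted, and their summed level was 119940 to 205050 CPM, as muscle tissue gives. CPM are read counts scaled to a common library size with edgeR's TMM factors. Low IMF replicates 2 and 3 stood apart from the other pairs by their likeness: 34.6% of genes differed between them by more than sampling noise (chi-square test per gene), against 65.5% to 80% in the other pairs. They were kept as separate replicates, and values with both summed are given below.

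TEKT5 was counted with 1281, 1223 and 784 reads with high IMF, against 2555, 2917 and 2865 reads with low IMF, each in the order of replicates 1 to 3, as are all such values that follow. On the CPM scale these levels were 28.3, 22.9 and 22.7 with high IMF, against 53.3, 70.7 and 69.7 with low IMF. The high IMF libraries were close together, and low IMF replicate 1 was the lowest of its group. The 95% Poisson interval, which covers counting error only, was 26.8 to 29.9 CPM in high IMF replicate 1 and 51.2 to 55.4 CPM in low IMF replicate 1, the 2 libraries that came nearest to each other. Their ratio was 1.88. The group means were 24.7 ± 3.16 CPM in high and 64.6 ± 9.8 CPM in low IMF muscle (SD, n = 3), and the fitted level was 2.62-fold higher in low IMF muscle (log2 difference, high minus low, -1.39).

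TMEM37 was counted with 1026, 1112 and 468 reads with high IMF, against 2771, 2168 and 2358 reads with low IMF. Its levels were 22.7, 20.9 and 13.6 CPM with high IMF, against 57.8, 52.6 and 57.3 CPM with low IMF. Here the low IMF libraries were the close ones and the lowest value of all was that of high IMF replicate 3. The nearest libraries across the groups were high IMF replicate 1 and low IMF replicate 2, with a ratio of 2.32. The group means were 19 ± 4.82 CPM and 55.9 ± 2.88 CPM (SD, n = 3), and the fitted level was 2.94-fold higher in low IMF muscle (log2 difference -1.55). In bulk tissue, fewer cells of a type and less RNA per cell cannot be told apart.

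**Figure D1:**
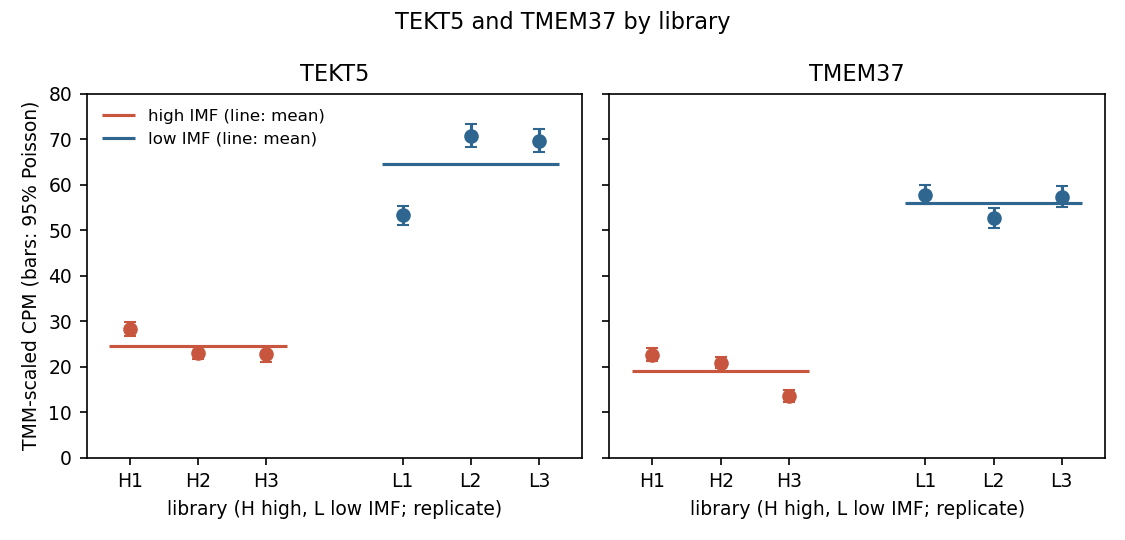
TEKT5 (left) and TMEM37 (right) in each library, in TMM-scaled CPM on the vertical axis, with high IMF in red and low IMF in blue. Points are libraries, bars are 95% Poisson intervals of the count and lines are group means; all high IMF libraries lie at or below 28.3 CPM and all low IMF libraries at or above 52.6 CPM.

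The genes were not alike within a group. In low IMF replicate 1 TEKT5 was at its lowest of that group and TMEM37 at its highest, and the ratio of their CPM levels was 0.922 there, against 1.35 and 1.22 in low IMF replicates 2 and 3. Among the high IMF libraries this ratio was 1.25, 1.1 and 1.68. Across the groups the ratio overlapped. The log2 levels of the genes had a Pearson r of 0.95 over the 6 libraries, which holds the group difference that chose them, and an r of 0.31 once each group's mean was removed. That likeness placed TMEM37 at rank 30 of 12036 genes compared with TEKT5, and TEKT5 at rank 55 among those compared with TMEM37.

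Among the genes tested, 972 had all high IMF libraries below all low IMF libraries, or 6.1% (percentage of the 15933 genes tested), and this is the property by which both genes were chosen. Of the 13570 genes with a mean of at least 1 CPM, 67 had a lower fitted ratio of high to low than TMEM37, which was at rank 68, and TEKT5 was at rank 97. With a mean of at least 1 CPM, 882 genes were without overlap in that direction (6.5%), and among them the gap between the nearest libraries placed TMEM37 at rank 14 and TEKT5 at rank 24. No gene of the 15933 passed at an adjusted p under 0.05 in edgeR's quasi-likelihood test (0 genes, 0%), nor did any in limma-voom (0 genes). A list of which 0 genes passed in edgeR thus does not differ in this from any other list. With no adjustment, edgeR's p was under 0.05 for 1158 genes (7.27%), of which 437 were lower (2.74%) and 721 higher (4.53%) with high IMF. The DESeq2 Wald test called 194 genes at an adjusted p under 0.05 (1.16% of the 16775 genes it gave one), 80 of them lower (0.477%).

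With library size in place of TMM, 182 genes were lower and 1018 higher at an unadjusted p under 0.05, and the median log2 difference of all genes went from 0.01 to 0.15. Relative to that median, TEKT5 measured -1.37 and TMEM37 -1.53 on the log2 scale, against -1.4 and -1.56 with TMM. Both genes were without overlap on this scale too, which is the property by which they were chosen. The ratios of the nearest libraries were 1.68 and 1.81. Without each library in turn the log2 difference was -1.52 to -1.32 for TEKT5 and -1.71 to -1.37 for TMEM37. With low IMF replicates 2 and 3 summed it was -1.33 and -1.57. The authors' deposited table gives log2 differences of -1.4 for TEKT5 and -1.56 for TMEM37, from the same libraries.

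**Figure D2:**
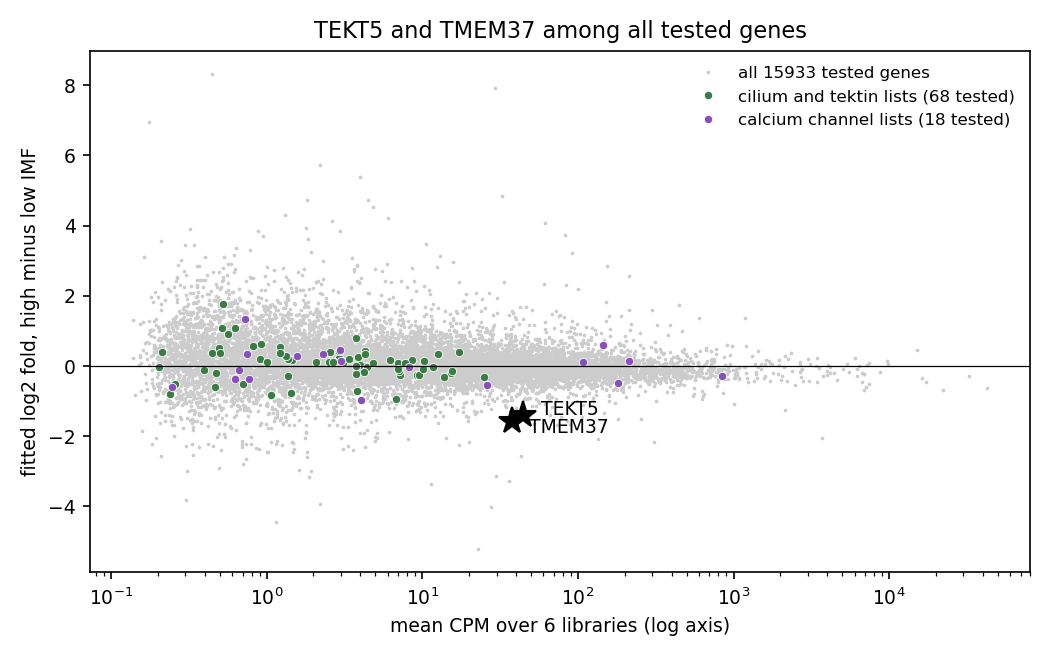
Fitted log2 difference, high minus low IMF (vertical axis), against mean CPM over the 6 libraries (horizontal, log axis) for 15933 tested genes in grey. Green points are 68 genes of the cilium and tektin lists, purple points are 18 genes of the calcium channel lists, and stars mark TEKT5 (-1.39) and TMEM37 (-1.55); none of the coloured points lies below TEKT5.

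To compare levels between genes, the deposited FPKM values (read counts scaled per gene length and library total) were used, since they are scaled per length. TEKT5 measured 4.95, 3.9 and 3.02 FPKM with high IMF, against 8.34, 9.66 and 9.76 FPKM with low IMF. TMEM37 measured 5.18, 4.63 and 2.36 FPKM against 11.8, 9.39 and 10.5 FPKM. The genes thus stood at similar levels per length, with a ratio of TEKT5 to TMEM37 of 0.706 to 1.28 on the FPKM scale. Count and FPKM together imply a gene length of 6620 bases for TEKT5 and 5062 bases for TMEM37, beside 1459 for TEKT1 and 1950 for TEKT3. A longer gene model lowers FPKM for a given count.

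Of 6 tektin genes looked up, TEKT1, TEKT2, TEKT3 and TEKT5 were in the count table, and TEKT4 and TEKTL1 were not matched by name. TEKT5 held 78.8% to 93.6% of the summed FPKM of the 4 counted tektins. TEKT3, another tektin of sperm flagella, had 49, 49 and 10 reads with high IMF, against 88, 35 and 58 reads with low IMF, or 0.764 ± 0.419 and 1.36 ± 0.494 CPM (SD, n = 3). Its groups overlapped, and it did not pass (log2 difference -0.83 ± 0.57 SE, edgeR adjusted p = 0.862). TEKT1, a tektin of cilia and flagella, had 17, 36 and 24 reads against 14, 16 and 22 reads, and did not pass either (log2 difference 0.52 ± 0.5 SE, edgeR adjusted p = 0.909). TEKT2 had 0 reads in the 3 high IMF libraries and 0, 2 and 1 in the low ones, and was not tested; a count of 0 allows up to 3 reads, or 0.0632 to 0.0768 CPM on total reads, so any difference was not detectable at this depth. TEKT5 had at least 784 reads in every library, while each other tektin had at most 88.

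**Figure D3:**
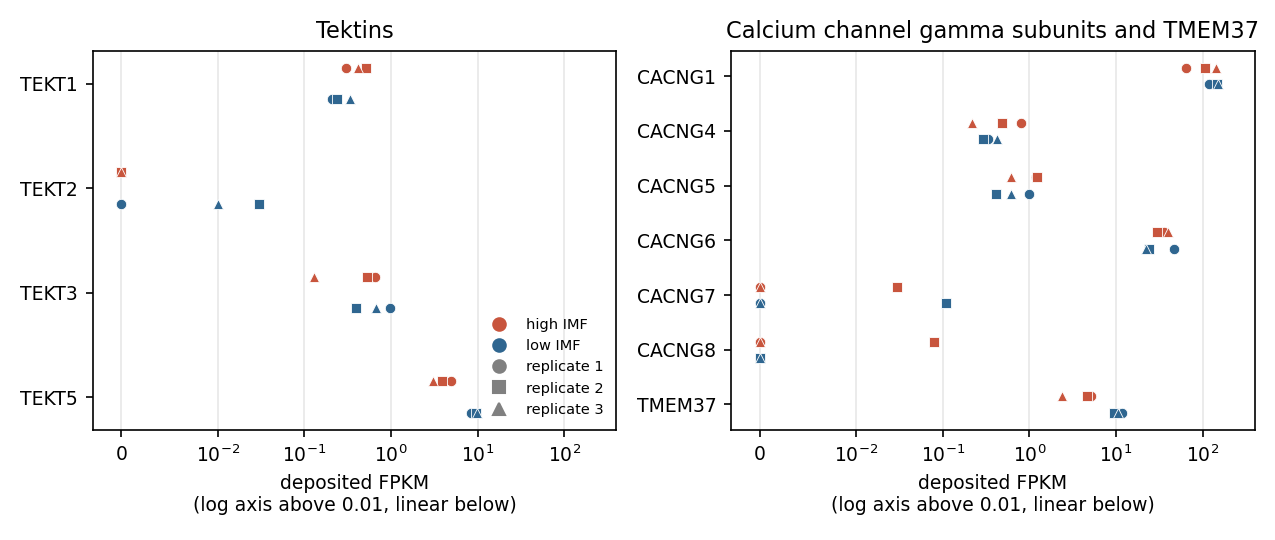
Deposited FPKM of each counted tektin (left) and of the counted calcium channel gamma subunits with TMEM37 (right), on an axis that is logarithmic above 0.01 and linear below. Red marks are high IMF and blue marks low IMF libraries, with 1 marker shape per replicate; TEKT5 lies at 3.02 to 9.76 FPKM and TEKT1 and TEKT3 at or below 0.98, while CACNG1 and CACNG6 lie above TMEM37.

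The other cilium genes were read from lists of doublet microtubule inner proteins, axonemal motors and spokes, intraflagellar transport and ciliogenesis transcription factors, with the other tektins. Of 112 genes listed, 99 were counted and 68 tested, and 0 passed in edgeR or in DESeq2, where the shares over all genes were 0% and 1.16%. At an unadjusted p under 0.05 in edgeR, 1 was higher and 0 were lower, where the shares over all genes were 4.53% and 2.74%. Their median log2 difference was 0.1 beside 0.01 for all genes. Of the 68, CFAP90 had all high IMF libraries below all low ones, where the share over all genes was 6.1%, and CFAP45, SPAG16 and IFT22 had all of them above. The share of all genes without overlap in either direction was 13%. With library size in place of TMM, IFT22 and CFAP90 overlapped. CFAP90 had 19 of 39083515 assigned reads in high IMF replicate 1 and 18 of 45617163 in low IMF replicate 2. The gene at an unadjusted p under 0.05 was CFAP45, a protein inside doublet microtubules, with 0.81 ± 0.388 CPM in high and 0.235 ± 0.142 CPM in low IMF muscle (SD, n = 3; edgeR adjusted p = 0.642).

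By list, the inner proteins had 7 positive and 8 negative log2 differences among 15 tested, with MNS1, a protein of the sperm flagellum, at 1.08 ± 0.71 SE and CFAP20 at -0.31 ± 0.22 SE (edgeR adjusted p = 0.851 and 0.867). Without low IMF replicate 1 MNS1 measured 2.2. Axonemal motors, spokes and ruler genes had 11 positive and 10 negative of 21. Their genes of smallest p were SPAG16, a central pair protein (log2 difference 0.44), and the axonemal dynein heavy chains DNAH3 (-0.71) and DNAH10 (0.91), with edgeR adjusted p of 0.772 to 0.82. Intraflagellar transport genes, which also serve the primary cilium, had 19 positive and 6 negative of 25, with a median of 0.11. Among them IFT172 measured 22.4 ± 2.97 and 27.7 ± 3.19 CPM, the kinesin-associated KIFAP3 19.4 ± 1.67 and 14.8 ± 4.82 CPM and CLUAP1 4.78 ± 1.12 and 3.76 ± 0.274 CPM with high and low IMF (SD, n = 3), all with overlap. The ciliogenesis factors RFX2, RFX3 and RFX4 overlapped too, with log2 differences of 0.79, -0.25 and -0.5. None of these genes passed.

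Most counted markers of the cells in which motile flagella and cilia are found were low. The germ cell markers PRM1, PRM2, ODF1, DAZL and CABS1 were not matched by name, so their levels are unknown. The same holds for CAPS, FAM183B, PIFO and SNTN of multiciliated cells. Of 16 germ cell and sperm markers, 11 were counted, and the summed level was 6.04 to 7.82 CPM in high and 6.4 to 9.13 CPM in low IMF libraries. SYCP3, of the meiotic chromosome axis, made up most of it with 5.12 ± 0.831 and 5.71 ± 1.28 CPM (SD, n = 3). ZPBP, a protein of the sperm acrosome, measured 0.533 ± 0.236 and 0.398 ± 0.27 CPM. Of the 5 tested, ZPBP had a positive log2 difference and the other 4 a negative one, as TEKT5 has, with a median of -0.76. The acrosomal ACR and ACRBP and the spermatid gene SPEM1 measured -0.99, -0.76 and -0.93, with means of at most 0.53 CPM in both groups, all with overlap, and 0 of the 5 passed. The part of this list in the level of TEKT5 was not tested. The spermatid protein TNP1 had 1 read in all, in low IMF replicate 1, and the germ cell helicase DDX4 0 to 8 reads per library. Among 11 markers of multiciliated cells, 7 were counted, and the summed level of 41 to 61.9 CPM in high and 51.3 to 58.3 CPM in low IMF libraries came mostly from the tubulin TUBB4B, which many cell types express, followed by CCDC78 (4.8 ± 2.43 and 4.95 ± 1.24 CPM). FOXJ1, the defining factor of motile cilia, had 2 to 15 reads per library.

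For TMEM37 the nearest genes by name are the gamma subunits, of which 6 of 8 were counted and 4 tested, and 0 passed. CACNG1, the gamma subunit of the muscle channel, measured 80.8, 134.6 and 234.9 CPM with high IMF, against 163.8, 232.5 and 235.5 CPM with low IMF. High IMF replicate 3, where TMEM37 was at its lowest, lay within the low IMF range for CACNG1, so the groups overlapped (log2 difference -0.49 ± 0.38 SE, edgeR adjusted p = 0.878). CACNG6, another gamma subunit of skeletal muscle, measured 111.4 ± 32.4 and 103.4 ± 36.9 CPM (SD, n = 3; log2 difference 0.11 ± 0.31 SE, edgeR adjusted p = 0.971), and its sign turned without some of the libraries. CACNG5 measured 3.44 ± 0.752 and 2.53 ± 0.918 CPM and CACNG4 0.837 ± 0.4 and 0.664 ± 0.141 CPM, both with overlap. CACNG7 and CACNG8, known from brain, had 0 to 6 and 0 to 4 reads per library and were not tested. On the FPKM scale, TMEM37 held 1.26% to 4.78% of the sum of these 7 genes in the high and 5.2% to 6.65% in the low IMF libraries, so that most of the family's signal came from CACNG1 and CACNG6.

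Across the gamma, alpha-1, beta and alpha-2-delta subunits, 23 of 26 genes other than TMEM37 were counted and 18 tested. Of these, 9 had a positive and 9 a negative log2 difference, with a median of 0.04. In edgeR and in DESeq2 0 passed, where the shares over all genes were 0% and 1.16%. CACNA1H, a pore subunit of T-type calcium channels, was the 1 of the 18 with no overlap between the groups with TMM, where the share over all genes was 13%. It measured 15.1, 23 and 25.9 CPM with high IMF, against 33.1, 32.4 and 27.6 CPM with low IMF. With library size in place of TMM its groups overlapped. Those of TMEM37 did not, but that is the property by which TMEM37 was chosen. The log2 difference below is that of CACNA1H. For CACNA1H it was -0.54 ± 0.22 SE, with an unadjusted p of 0.0444 and an adjusted p of 0.673 in edgeR. It was 1 of the 18 at an unadjusted p under 0.05 in the lower direction, where the share over all genes was 2.74%. CACNA1G, also of the T type, measured 2.69 ± 1.56 and 5.35 ± 1.99 CPM and CACNA1E, of the R type, 1.05 ± 0.608 and 0.414 ± 0.302 CPM, with overlap. The log2 difference of CACNA1E, 1.35, was 0.74 without high IMF replicate 2 and 2.02 without low IMF replicate 2. CACNB1, the beta subunit of the muscle channel, lay on the other side with 176.4 ± 68.2 and 115.5 ± 12.6 CPM (log2 difference 0.61 ± 0.3 SE, edgeR adjusted p = 0.748). CACNA2D1, the alpha-2-delta subunit of that channel, measured 225.2 ± 15.4 and 203.4 ± 25.4 CPM, and CACNB2 1.71 ± 0.67 and 1.4 ± 0.222 CPM.

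The deposited table itself carries protein family names. The claudin-like family (PMP-22/EMP/MP20/Claudin), to which it assigns TMEM37, had 33 other rows, of which 24 were tested and 0 passed. Among these, 17 had a positive and 7 a negative log2 difference, and at an unadjusted p under 0.05 in edgeR 1 was lower and 1 higher, where the shares over all genes were 2.74% and 4.53%. These were TMEM178A, with 1.63 ± 0.862 and 4.25 ± 1.94 CPM with high and low IMF without overlap, and CLDN15, with 3.37 ± 1.44 and 1.41 ± 0.61 CPM (SD, n = 3; edgeR adjusted p = 0.639 for both). TMEM178A overlapped with library size in place of TMM, and 2 rows, CLDN18 and NKG7, had all high IMF libraries above all low ones. The share of all genes without overlap in either direction was 13%. The tektin family rows were TEKT1, TEKT3, TEKT5 and IQCE, a ciliary protein, which measured 5.57 ± 0.342 and 6 ± 0.692 CPM. The table places TEKT5 among 19 rows of the sperm flagellum and 142 rows of cilium assembly. Of the other 18 and 141, 12 and 124 were tested and 0 passed in edgeR. Of the 124 rows of cilium assembly, edgeR's unadjusted p was under 0.05 for 6 that were higher and 3 that were lower, where the shares over all genes were 4.53% and 2.74%. Of the same rows, 10 had all high IMF libraries above and 5 below all low ones. Over all genes tested, 6.1% lay below in this way and 13% were without overlap in either direction. In DESeq2, 2 of them were lower and 0 higher, where 0.477% of all genes were lower. They were the mitotic kinesin KIF18B, with 1.75, 2.7 and 1.56 CPM with high IMF, against 42.9, 9.72 and 9.17 CPM with low IMF (DESeq2 adjusted p = 7.66e-06), and MACIR, a regulator of macrophage activity, with 11.2 ± 3.16 and 25.3 ± 4.37 CPM (DESeq2 adjusted p = 0.0119). These annotation lists and the genes named from them were chosen after the values were seen.

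The genes on either side were examined because no source used here says whether the counting used strand. No gene overlapped TEKT5 or TMEM37 in RefSeq's donkey genes (EquAss-T2T_v2), from which gene order alone was taken. NUBP1, an iron-sulfur cluster assembly factor next to TEKT5, measured 44.9, 53.1 and 72.4 CPM with high IMF, against 74.9, 58.4 and 53.5 CPM with low IMF. EMP2, a membrane protein on the other side of TEKT5, measured 55.6, 116.5 and 126.3 CPM against 105.2, 107.9 and 105.6 CPM. Both overlapped between the groups, with log2 differences of -0.13 ± 0.23 SE and -0.1 ± 0.3 SE. DBI, the acyl-CoA binding protein next to TMEM37, was steady over the libraries, with 31.7, 29.5 and 28 CPM with high IMF, against 28.9, 30 and 33.1 CPM with low IMF (log2 difference -0.05 ± 0.14 SE, edgeR adjusted p = 0.973). SCTR, the secretin receptor on the other side of TMEM37, had 15, 20 and 1 reads against 44, 16 and 16 reads. Its CPM levels did not overlap, with 0.375 at the top of the high and 0.388 at the bottom of the low IMF libraries. It did not pass (log2 difference -1.17 ± 0.82 SE, edgeR adjusted p = 0.867), and with library size in place of TMM its groups overlapped.

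Summed marker levels of other cell types were set beside both genes. With TMM, endothelial markers were the 1 list of the 13 with every high IMF library below every low one. Their summed level was 983.3, 822.3 and 528 CPM with high IMF, against 1157, 1003 and 1016 CPM with low IMF, and 9 of 10 had a negative log2 difference (median -0.47). By single gene, FLT1, CLDN5, ESAM and PECAM1 (4 of 10) had every high IMF library below every low one. The share over all genes was 6.1%. With library size in place of TMM CLDN5, ESAM and PECAM1 overlapped, and FLT1 did not. FLT1 had 64.2 CPM in high IMF replicate 1, against 117.8 and 129.4 CPM in low IMF replicates 2 and 3. Without FLT1 the sum of high IMF replicate 1 lay above those of both, so the groups overlapped. Without CLDN5 it lay above that of low IMF replicate 2, so they overlapped as well. FLT1 was also the gene most like TMEM37 in pattern, and the lists were chosen with earlier results of these data known. With library size in place of TMM the sum of all 10 overlapped, with 1139, 922.9 and 466.8 reads against 1197, 907 and 942.5 reads per 1000000 assigned. The most abundant were VWF, with 135.3 ± 42 and 189.6 ± 58.2 CPM, and PECAM1, with 127.2 ± 48.8 and 180.8 ± 6.22 CPM (SD, n = 3). Smooth muscle and pericyte markers, led by RGS5 and ACTA2, summed to 646 to 929.6 CPM in high and 928.7 to 1412 CPM in low IMF libraries, with 3 positive and 5 negative log2 differences (median -0.48). Among them MYH11, the smooth muscle myosin heavy chain, was lower with high IMF in DESeq2 (52 ± 33.3 and 218.4 ± 119.3 CPM, DESeq2 adjusted p = 0.0191, edgeR adjusted p = 0.523). KCNJ8, a potassium channel of pericytes, lay the other way without overlap (16.4 ± 3 and 9.48 ± 0.533 CPM, edgeR adjusted p = 0.51). All 10 endothelial and 8 smooth muscle markers were counted, and none was at 0.

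Several lists lay opposite to TEKT5 and TMEM37 by their median log2 difference. Adipocyte markers had 7 positive and 3 negative log2 differences (median 1.08), though their summed level, carried by PLIN4 and PNPLA2, overlapped with 461.8 to 847.3 CPM and 619.5 to 678.5 CPM. CIDEA, a lipid droplet protein, was higher with high IMF in DESeq2 (9.51 ± 9.58 and 1.46 ± 1.08 CPM, DESeq2 adjusted p = 0.044, edgeR adjusted p = 0.592). All 10 fibroblast and progenitor markers were positive (median 1.06), as were 8 of 10 macrophage (median 1.09) and 7 of 9 tested lymphocyte markers (median 1.12), with sums that overlapped. The direction did not hold in every high IMF library. High IMF replicate 3 had the lowest adipocyte, fibroblast and macrophage sums of all libraries (461.8, 331 and 57.1 CPM). Epithelial markers summed to 1.28 to 2.87 against 0.485 to 0.827 CPM without overlap. CIDEA, MYH11 and KCNJ8 were chosen after their values were seen.

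The ratio of each gene to these sums keeps the CPM values by which the genes were chosen, so the ratios are a description and the part of other cell types in the levels was not tested. Divided by the endothelial sum, TEKT5 was 1.86-fold and TMEM37 2.14-fold higher in low IMF muscle. Divided by the smooth muscle sum the folds were 1.64 and 1.94, and by the muscle fibre sum 2.03 and 2.25. The smallest folds were those against the Schwann cell list, 1.36 for TEKT5 and 1.49 for TMEM37. That sum was lowest in high IMF replicate 1 (36.1 CPM, against 113.1 to 212.8 CPM elsewhere), which put this library above every other in the ratio.

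**Figure D4:**
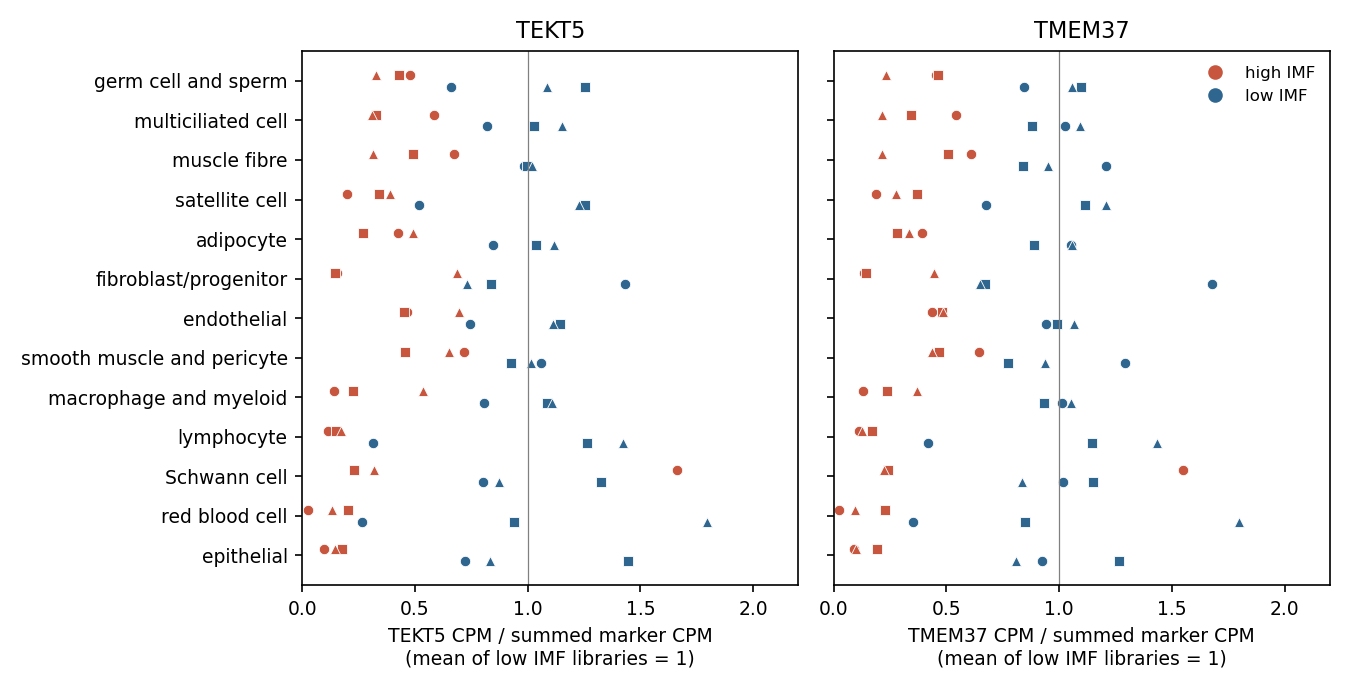
Ratio of TEKT5 (left) and TMEM37 (right) to the summed CPM of each cell type's markers, scaled so that the mean of the low IMF libraries is 1. Circles, squares and triangles are replicates 1, 2 and 3, red for high and blue for low IMF; the values hold the CPM that chose the genes, and high IMF replicate 1 lies highest for the Schwann cell list.

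The genes whose pattern was most like TEKT5 over the 6 libraries, by Pearson r of log2 CPM among 12036 named genes with a mean of at least 1 CPM, were VPS33A (0.981), INSR (0.98), SMPDL3A (0.979), MAT2B (0.976) and CIAPIN1 (0.976). They are a vacuolar sorting protein, the insulin receptor, a sphingomyelinase-like enzyme, a methionine adenosyltransferase subunit and an iron-sulfur cluster protein. VPS33A measured 21.4, 16.5 and 16.8 CPM with high IMF, against 26.4, 30.2 and 30.4 CPM with low IMF. As for TEKT5, replicate 1 was the highest of the high and the lowest of the low IMF group. The lowest r were those of NXN (-0.994), TRAK2 (-0.99) and ZSWIM3 (-0.989). These libraries fall into 2 separate groups by the choice of the gene, so r holds that difference. Before any group mean was removed, 123 of the genes compared (1.02%) had an r above 0.9. With group means removed, r was 0.911 for VPS33A, 0.89 for INSR and 0.387 for MAT2B.

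For TMEM37 the most alike were FLT1 (0.997), RPA3 (0.996), KALRN (0.991), TMBIM4 (0.989) and SMPDL3A (0.988), and among the lowest r were those of DPP8 (-0.991) and ZBTB43 (-0.986). FLT1, a receptor for vascular endothelial growth factor on endothelial cells, measured 64.2, 66 and 46.6 CPM with high IMF, against 122.2, 117.8 and 129.4 CPM with low IMF. Both genes had their lowest value in high IMF replicate 3, and the r of FLT1 with TMEM37 was 0.964 with group means removed. With group means kept, 146 of the genes compared (1.21%) had an r above 0.9 with TMEM37. FLT1 is among the 10 endothelial markers, and without it their sum overlapped between the groups. SMPDL3A was the 1 gene among the 5 most alike of both TEKT5 and TMEM37, with 12.3 ± 1.93 CPM in high and 31.6 ± 2.08 CPM in low IMF muscle (SD, n = 3). RPA3 and TMBIM4 differed less in level, with 61.9 ± 2.18 and 71.6 ± 1.11 CPM, and 50.1 ± 1.34 and 56.4 ± 0.566 CPM, and their r fell to 0.634 and 0.546 with library size in place of TMM.

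**Figure D5:**
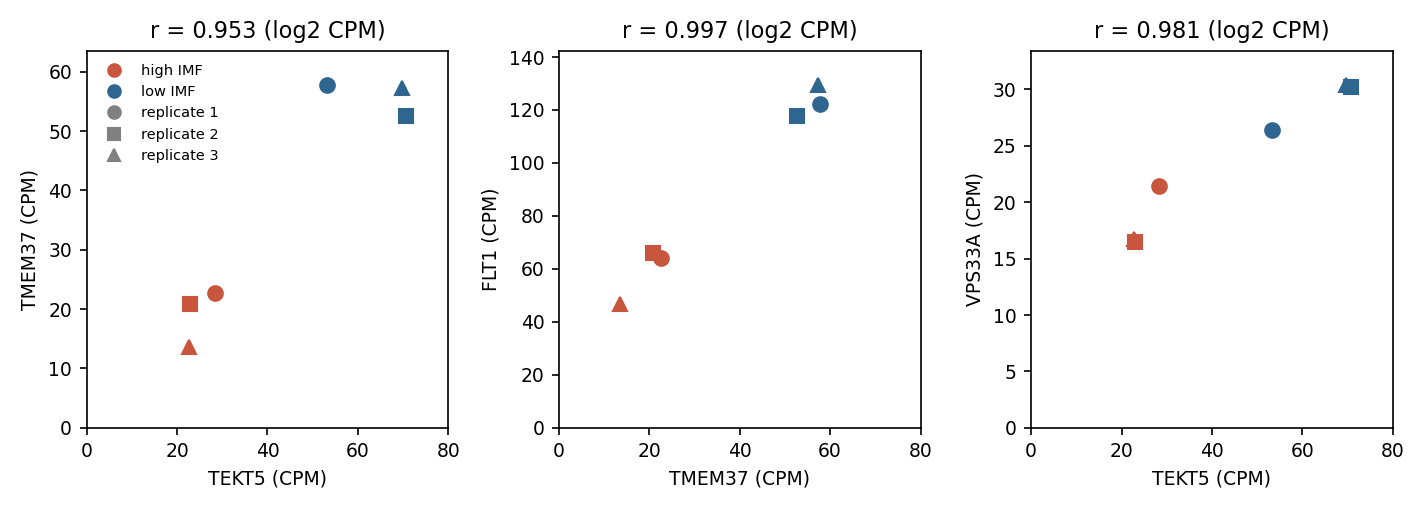
CPM of TMEM37 against TEKT5 (left), FLT1 against TMEM37 (middle) and VPS33A against TEKT5 (right) in the 6 libraries, red for high and blue for low IMF, with circles, squares and triangles for replicates 1, 2 and 3. Within the low IMF group replicate 1 is lowest for TEKT5 and VPS33A, and within the high IMF group replicate 3 is lowest for TMEM37 and FLT1.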

How the data were processed

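Read counts per gene, in whole numbers, are the authors' own deposited values. Reads were aligned with HISAT2 and the build is named mm9, a mouse build, per the submitters' processing notes, whereas the deposited gene names are those of donkey. The build behind the counts is therefore unsure and no coordinates are given. No source used here gives the counter, annotation or strand setting, and the labels name 2 different sequencers. FPKM, also as deposited, served only for levels per length. The deposited log2 fold change is the authors' own comparison. The per-sample counts equalled the series table (0 cells differed). Symbols came from the file, plus 876 from RefSeq by gene number.

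Counts were tested with edgeR 4.0.16 (R 4.3.3, TMM, filterByExpr, quasi-likelihood F-test, Benjamini-Hochberg, threshold 0.05), checked on simulated data. CPM are relative to TMM-adjusted library sizes; likeness used log2 CPM with a prior count of 2. Alternatives were DESeq2 1.42.0, limma-voom (limma 3.58.1), other scalings and filters, a replicate block, each library left out and low IMF replicates 2 and 3 summed. Overlap of groups under library size was checked after seeing the data. The genes, 21 lists and naming rule were chosen with earlier results of these data known: both members, all counted tektins and gamma subunits, up to 3 genes of smallest p per pathway list, the 2 most abundant markers of the lists described, the neighbouring genes and the 5 most and 3 least alike genes, of which 1 is not reported here. Sequence comparisons planned for both genes were not run.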

Additional observations from a re-analysis of the deposited data

How the results depend on the processing

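The log2 differences of TEKT5 and TMEM37 stayed negative and within 1 SD of the replicates in all 14 alternatives for each. Both genes were chosen for groups without overlap, so the negative sign follows from the choice and is no test. The count of genes at an adjusted p under 0.05 was 0 in edgeR, 194 with the DESeq2 Wald test, and 0 to 3 when each library was left out. At an unadjusted p under 0.05 the lower genes were 182 with library size only, 272 with low IMF replicates 2 and 3 summed and 272 to 890 without each library in turn; the higher genes were 428 with both summed and 438 to 1155 without each library. The extremes came without low IMF replicate 2 and without high IMF replicate 3. Whether replicate numbers pair the libraries was not settled. Same-numbered deviations correlated at 0.196, 0.149 and 0.02, against -0.216 to 0.206 for the other pairs, and not every library was most like its own number. The likeness of low IMF replicates 2 and 3 leaves these numbers hard to tell apart. A replicate block gave 0 genes at an adjusted p under 0.05, with log2 differences of -1.39 for TEKT5 and -1.58 for TMEM37.

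Some small differences that did not pass turned sign. Without each library in turn CACNG4 ranged from -0.086 (without high IMF replicate 1) to 0.62, CACNG6 from -0.15 (without high IMF replicate 3) to 0.42, CACNB2 from -0.085 (without high IMF replicate 1) to 0.48, NUBP1 from -0.35 to 0.0067 (without low IMF replicate 1), EMP2 from -0.31 to 0.18 (without high IMF replicate 1) and DBI from -0.11 to 0.0077 (without low IMF replicate 3). CACNG6 was also negative without low IMF replicate 2 or 3, and measured -0.038 with both summed. With library size only EMP2 measured 0.011 and DBI 0.11. The lowest r among the 5 genes most like TEKT5 was 0.771 by Spearman's rank correlation and 0.849 with library size only. For TMEM37 it was 0.714 and 0.546; the cause was not tested. At 39052998 to 47494157 reads per library, genes of a few reads such as TEKT2 cannot be compared.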
